A study of Homo sapiens with 2 samples.

Results

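Glutathione, thioredoxin and NRF2 genes are described here in K562 cells that overexpressed PML4. The set was 41 listed genes: the transcription factor NRF2 (gene NFE2L2) and its repressor KEAP1, enzymes that make and use glutathione or thioredoxin, enzymes that supply NADPH, and further antioxidant genes. All probe sets annotated to these genes alone were taken, 78 of the 54675 on the array. Of the 41 genes 36 were measured, through 68 probe sets, among 12541 measured genes in all. A probe set counted as measured when its signal exceeded a floor of 72.4, the median over both arrays of the human probe sets, on at least 1 array. GPX1, GPX7 and OSGIN1 lay under the floor on both arrays. PRDX5 and AKR1B1 had no probe set of their own in the annotation used and were not analysed here.

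Gene expression was measured on 2 Affymetrix arrays, 1 per group. The tested cells were K562 cells carrying a retrovirus for PML4, an isoform of the promyelocytic leukaemia protein, and their controls were K562 cells carrying the empty retroviral vector pMSCV. Both were selected in G418 for 3 weeks. K562 is an established human erythroleukaemia line that carries BCR-ABL. The labels do not say whether the selected cells were 1 clone or a pool. With 1 array per group no difference has a replicate error and no statistical test was possible. Each difference below is therefore that between these 2 arrays, given as log2 PML4 minus log2 control vector, with the floor put in place of any signal below it.

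Cells keep reactive oxygen in check through glutathione and thioredoxin, small thiol carriers that pass electrons from NADPH to peroxides and oxidised proteins. NRF2 switches on many of these genes, and KEAP1 holds NRF2 down by delivering it to the proteasome until oxidants or electrophiles modify KEAP1. In erythroid cells, which carry much heme and iron, peroxiredoxins, catalase and glutathione peroxidases are abundant and protect hemoglobin and membranes.

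The PML4 array was the dimmer one at low signals, with 48.08% of human probe sets above the floor, against 51.88% on the control array. GAPDH had a ratio of 3' to 5' signal of 1.53 on the PML4 array and 1.55 on the control array, and that of ACTB was 2.80 and 2.94. Of the 9 measured PML probe sets 5 were higher with PML4, at most 7.12-fold, and 4 were lower, at most 5.92-fold. All 11 erythroid and K562 markers with a probe set of their own were above the floor on both arrays, with a summed signal of 78612.6 on the PML4 array and 53966.0 on the control array. The gap came mostly from TFRC, at 31653.7 and 17625.2, HBE1, at 24540.1 and 18103.9, and HBZ, at 5465.5 and 1401.4. By direction 8 markers were higher and 3 lower. HBZ was 3.90-fold higher, while ALAS2 and EPOR were 2.57-fold and 2.08-fold lower, EPOR with probe sets on both sides. The T cell list summed to 5455.4 on the PML4 array and 3004.4 on the control array, mostly CD3D, with CD2 and LCK under the floor on both. The B cell list summed to 254.7 and 405.8 with CD79B and MS4A1 under the floor, the monocyte list to 3959.2 and 3989.8 with CD14 under it, and the fibroblast list to 434.6 and 566.3 with COL1A2, COL3A1, LUM and PDGFRB under it. The part of these markers in the results was not tested.

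Most of the 36 measured genes differed little between the arrays. A few stood away from the rest: NQO1 and GLRX2 were higher with PML4, and ME1 and NQO2 were lower. ME1, the cytosolic malic enzyme, was the only gene of the set past 2-fold, at 2.02-fold lower, and none was 2-fold higher. Among all measured genes 4.43% were past 2-fold, 1.23% (154 genes) higher and 3.21% (402 genes) lower. That split was 184 higher and 341 lower after centring on the median gene, 196 and 281 after quantile normalization and 201 and 265 after loess centring. At 1.5-fold the set held 2 higher and 2 lower genes, or 11.11%, against 17.5% of all measured genes, of which 5.7% were higher and 11.8% lower. The set was bright: 29 of its 36 genes were among the 25% of measured genes with the highest mean signal, called bright genes below. Of the 29, 10.34% passed 1.5-fold, 2 higher and 1 lower, against 7.56% of all bright genes, 4.02% higher and 3.54% lower. None of the 29 passed 2-fold, against 1.21% of all bright genes, 0.51% higher and 0.702% lower. These shares of the set lie near those of the background.

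The median difference of the set was 0.04 on the log2 scale, against -0.05 for all measured genes and 0.05 for bright genes. By direction 21 genes read higher with PML4 and 15 read lower, against 44.7% higher and 55.3% lower among all measured genes and 56.6% higher and 43.4% lower among bright genes. Where a gene has several probe sets, the gap between their differences gives a spread to read a value against. Over 16239 pairs of probe sets in 5453 genes that gap had a median of 0.29, and over 37 pairs in the set it was 0.22. Of the 36 genes 26 differed by less than 0.29, or 72.22%, against 54.17% of all measured genes and 67.03% of bright genes. Probe sets of a gene were read on the same 2 arrays, so this spread holds no variation between cultures or arrays. A value inside or outside the spread was not tested against such variation.

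**Figure D1:**
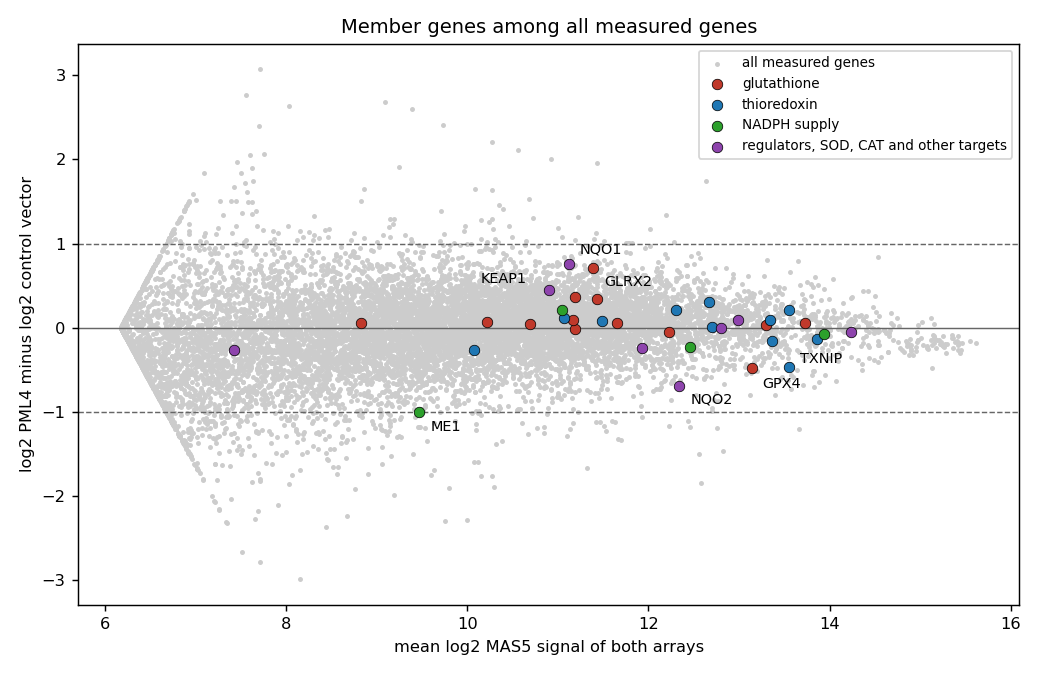
Each point is a measured gene, with its mean log2 signal over both arrays on the horizontal axis and log2 PML4 minus log2 control vector on the vertical axis. Grey points are all 12541 measured genes, coloured points the 36 measured genes of the set by group, and dashed lines mark 2-fold. The coloured points lie mostly at high signal and close to 0, with NQO1 and GLRX2 above and ME1 and NQO2 below.

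The glutathione, thioredoxin and NADPH-supplying groups are set side by side here. The 13 measured glutathione genes had a median of 0.06, with 10 higher and 3 lower and none past 2-fold. The 11 measured thioredoxin genes had a median of 0.07, with 7 higher and 4 lower and none past 1.5-fold. The 4 NADPH-supplying genes had a median of -0.16, with 1 higher and 3 lower, and held the only 2-fold difference. With the mean over the probe sets of each gene, the thioredoxin median was -0.01 and that of the whole set -0.06. Among all measured genes 44.7% were higher, 17.5% past 1.5-fold and 4.43% past 2-fold, with a median of -0.05. For bright genes these were 56.6%, 7.56% and 1.21%, with a median of 0.05. Bright genes made up 10 of the 13 glutathione, 10 of the 11 thioredoxin and 3 of the 4 NADPH-supplying genes. The glutathione and thioredoxin medians thus lay near that of bright genes. The difference between the groups was not tested.

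**Figure D2:**
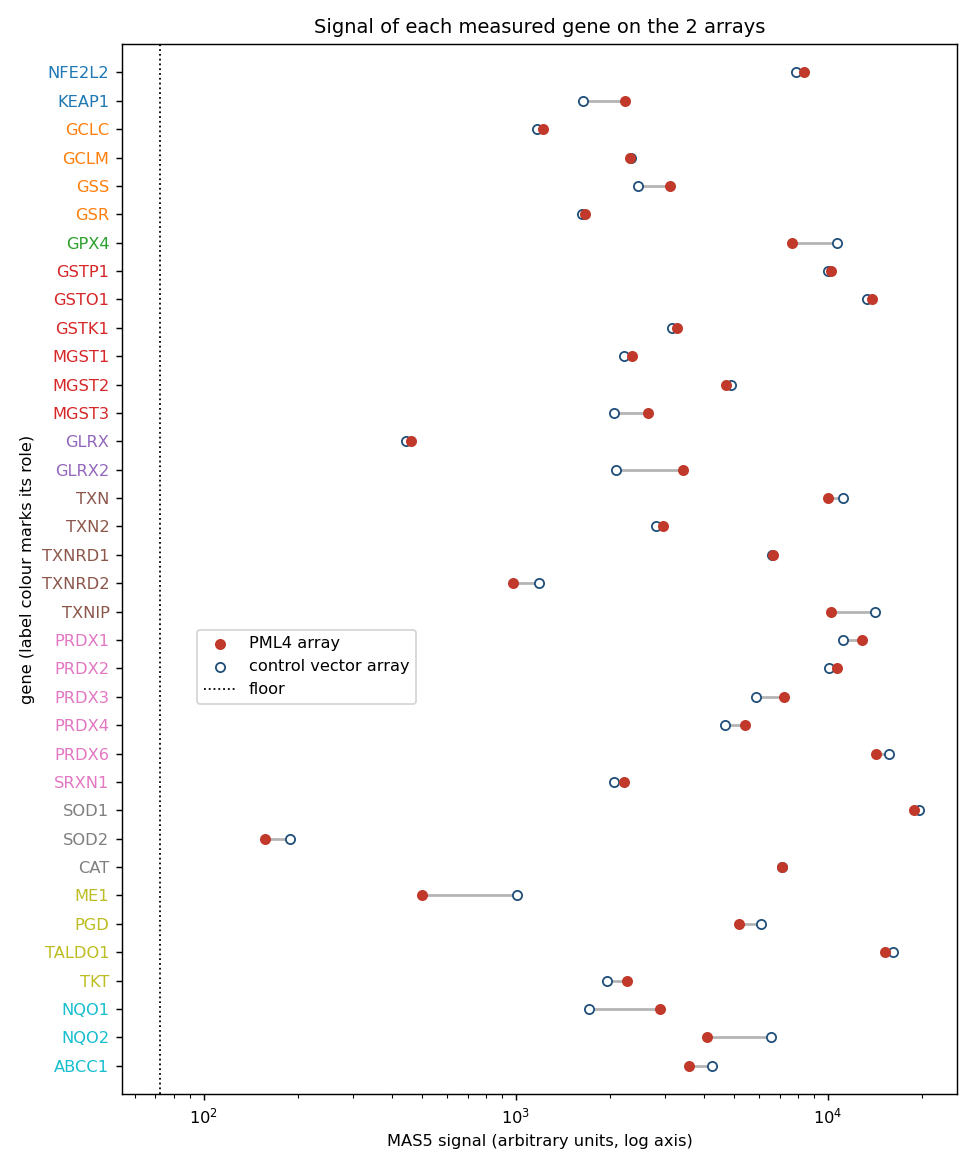
Signals of the 36 measured genes on a log axis, ordered by role, with filled red points for the PML4 array, open blue points for the control vector array and a dotted line at the floor of 72.4. Each gene is drawn by the probe set that stands for it, the measured one with the highest mean log2 signal. The widest gaps are those of ME1, NQO1, GLRX2 and NQO2, while for CAT, TXNRD1 and GCLM the points coincide.

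Promoter DNA is shown for 5 of these genes. The antioxidant response element is the DNA site of NRF2 with its small MAF partners, and its core was searched as TGACNNNGC on both strands. Windows of 250 bases before to 50 after each RefSeq start (GRCh38.p14) were available for 33 of the 41 genes. The core was found for 8 of them, KEAP1, GCLM, GSTP1, GSTO1, MGST1, TXNRD1, ME1 and PGD, against 16.1% of the 27305 genes in the table and 13.3% of its 35116 windows. Shown are the 250 bases before the start, 5′ to 3′ on the strand of the gene, for the gene with the largest difference upward (NQO1, chr16:69726561-69726810, minus strand), the one with the largest downward (ME1, chr6:83431052-83431301, minus strand), the regulator TXNIP (chr1:145996580-145996829, minus strand, 1 of its 2 listed starts), and GCLM (chr1:93909431-93909680, minus strand) and GSTP1 (chr11:67583562-67583811, plus strand), which were close to equal on the arrays. Capitals mark the antioxidant core in ME1, GCLM and GSTP1 and the carbohydrate response element in TXNIP. No capitals stand in NQO1, because these letters do not occur in the stretch shown. DNA farther upstream than 250 bases was not searched, so this does not show that NQO1 lacks the element.
NQO1: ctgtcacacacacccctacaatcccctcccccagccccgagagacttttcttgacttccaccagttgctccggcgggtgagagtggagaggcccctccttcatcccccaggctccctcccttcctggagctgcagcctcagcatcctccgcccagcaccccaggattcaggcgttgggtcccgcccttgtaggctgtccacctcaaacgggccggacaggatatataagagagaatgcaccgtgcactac
ME1: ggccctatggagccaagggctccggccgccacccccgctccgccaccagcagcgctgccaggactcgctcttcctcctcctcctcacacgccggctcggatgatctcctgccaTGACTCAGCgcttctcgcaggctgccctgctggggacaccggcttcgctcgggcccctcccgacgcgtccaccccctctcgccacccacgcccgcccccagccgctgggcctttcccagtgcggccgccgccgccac
TXNIP: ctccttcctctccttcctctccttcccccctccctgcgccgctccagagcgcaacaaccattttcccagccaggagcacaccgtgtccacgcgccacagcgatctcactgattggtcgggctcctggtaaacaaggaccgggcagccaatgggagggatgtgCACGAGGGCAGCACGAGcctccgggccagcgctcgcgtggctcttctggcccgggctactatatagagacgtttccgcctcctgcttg
GCLM: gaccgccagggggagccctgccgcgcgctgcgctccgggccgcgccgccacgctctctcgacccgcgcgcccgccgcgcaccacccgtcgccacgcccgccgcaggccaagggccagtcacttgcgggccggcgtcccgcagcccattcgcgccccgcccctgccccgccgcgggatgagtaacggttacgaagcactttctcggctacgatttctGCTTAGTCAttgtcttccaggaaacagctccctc
GSTP1: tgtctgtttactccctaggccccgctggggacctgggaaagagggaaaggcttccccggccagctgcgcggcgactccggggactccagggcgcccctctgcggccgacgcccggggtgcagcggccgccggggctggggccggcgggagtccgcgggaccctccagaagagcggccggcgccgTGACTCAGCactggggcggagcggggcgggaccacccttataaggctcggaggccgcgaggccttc

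ME1 and GSTP1 carried the core in the same letters, TGACTCAGC, first base at -137 for ME1 and at -66 for GSTP1, counted from the transcription start. The ME1 window held a further match, GCACCGTCA in the opposite orientation, with its first base at 12, past the stretch shown. ME1 was 2.02-fold lower with PML4 and GSTP1 was within 1.02-fold. GCLM carried it in the opposite orientation, as GCTTAGTCA, at -34. Among all 2003 measured genes with the core 942 were higher and 1061 lower, with a median of -0.02, against -0.04 for the 10153 measured genes with any window. A match of letters is a description of these windows and shows no binding. The amino acid response element TGATGNAA, a site of the ATF4 family, was in the windows of none of the 33 genes, against 4.46% of all genes.

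NFE2L2, which encodes NRF2, was nearly equal on the arrays at its brightest probe set. It read 8391.5 on the PML4 array and 7885.6 on the control array, a difference of 0.09. A dimmer probe set read 416.2 on the PML4 array and 261.6 on the control array, a difference of 0.67, and the last lay under the floor. A further probe set is shared with CSNK2A1 and was not used. The brightest reading of NFE2L2 thus lay well inside the spread between probe sets, while the dim one lay outside it. KEAP1, the repressor of NRF2, read 2240.2 on the PML4 array and 1643.8 on the control array, 1.36-fold higher with 1 probe set. As many as 10.1% of measured genes were at least that much higher.

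Genes that make and regenerate glutathione were close to equal. GCLC is the catalytic subunit of glutamate-cysteine ligase, the rate-limiting enzyme of glutathione synthesis, and it read 1220.0 on the PML4 array and 1168.0 on the control array at its brightest probe set. Its other probe sets were at 0.29 and, near the floor, at -0.56. GCLM, the modifier subunit, read 2312.2 on the PML4 array and 2342.2 on the control array. The other GCLM probe sets were lower with PML4, 789.4 against 1133.7 at one and 727.6 against 1011.4 at the other, so the 3 lay between -0.52 and -0.02. GSS, glutathione synthetase, read 3122.5 on the PML4 array and 2462.1 on the control array, 1.27-fold higher, while its second probe set was at -0.03. GSR, which reduces oxidised glutathione with NADPH, differed by 0.04, and by 0.23 at its other probe set. No gene of these 4 was past 1.5-fold, and only GCLM and GSR had all probe sets on one side.

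GPX4, the selenoenzyme that reduces lipid peroxides in membranes and guards against ferroptosis, was lower with PML4. Its 1 probe set read 7642.7 on the PML4 array and 10675.7 on the control array, 1.40-fold lower, and 16% of measured genes were at least that much lower. GPX1, the abundant cytosolic peroxidase, read 7.3 on the PML4 array and 30.7 on the control array, and GPX7, a peroxidase of the endoplasmic reticulum, read 22.5 and 67.1. Both lay under the floor, so no fold is given. The peroxidases were therefore represented by GPX4 alone.

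Glutathione transferases, which couple glutathione to electrophiles, differed by at most 1.28-fold at the probe sets that stand for them, but dim probe sets of MGST1 and MGST3 were lower. GSTP1, the pi-class transferase, read 10187.1 on the PML4 array and 9987.6 on the control array. GSTO1, of the omega class, read 13861.8 and 13322.6, with its other probe set within 0.02 of the same difference. GSTK1, a kappa-class enzyme of mitochondria and peroxisomes, read 3283.8 on the PML4 array and 3173.2 on the control array. These 3 genes differed by 0.03 to 0.06. The microsomal MGST2 read 4714.1 on the PML4 array and 4894.1 on the control array, at -0.05. MGST1 was at 0.08 at its brightest probe set, but its dim probe set read 71.0 on the PML4 array, just under the floor, and 152.4 on the control array, at least 2.10-fold lower. MGST3 was 1.28-fold higher at its brightest probe set, 2649.0 against 2064.0, and lower at the other, 206.1 against 562.7. For MGST3 direction therefore depends on the probe set, and the mean over both was -0.54.

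Glutaredoxins reduce mixed disulfides of glutathione and proteins, and the mitochondrial one stood apart from the cytosolic one. GLRX2, the mitochondrial and nuclear form, read 3436.3 on the PML4 array and 2097.9 on the control array, 1.64-fold higher. Only 3.53% of measured genes were at least that much higher, and GLRX2 rests on 1 probe set. GLRX, the cytosolic form, read 462.6 on the PML4 array and 443.9 on the control array, and 329.5 and 311.5 at its second probe set. Both GLRX probe sets were within 0.08, well inside the spread.

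Thioredoxins and their reductases were close to equal in the cytosol and slightly lower for the mitochondrial reductase. TXN, cytosolic thioredoxin, read 9978.7 on the PML4 array and 11151.0 on the control array, a difference of -0.16, while its dim second probe set read 145.3 and 132.2, a difference of 0.14. Its reductase TXNRD1, a selenoenzyme and a known NRF2 target, read 6681.7 and 6633.7, a difference of 0.01. Mitochondrial thioredoxin TXN2 was at 0.07 and -0.29 in its probe sets, which thus differed in direction. TXNRD2, the mitochondrial reductase, was lower at both probe sets, 977.4 on the PML4 array and 1181.3 on the control array at the brighter and 119.6 and 191.9 at the dimmer.

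TXNIP, which binds thioredoxin and restrains glucose uptake, was lower with PML4 at all 3 probe sets. They read 10251.7 on the PML4 array against 14144.3 on the control array, 5244.1 against 7401.3, and 2853.0 against 4549.3. These are differences of -0.46, -0.50 and -0.67, and they lie within 0.21 of each other. Among 2847 genes with 3 or more measured probe sets 20.7% had every one lower. The largest gap of TXNIP from 0 was 1.59-fold, and the probe set that stands for it was 1.38-fold lower.

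TXNIP carries the carbohydrate response element shown above in capitals, a paired E-box through which the MondoA and ChREBP factors act on glucose-regulated genes. It was searched on both strands as 2 copies of CACGNG with 5 bases between them, and its first base lies at -88 from the TXNIP start. Only 20 of the 27305 genes held these letters, or 0.0732%, and TXNIP alone among the 33.

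Peroxiredoxins, the thiol peroxidases that thioredoxin keeps reduced, differed by less than 1.5-fold at the probe sets that stand for them, PRDX6 in the other direction from the rest. PRDX3, the mitochondrial one, read 7212.2 on the PML4 array and 5858.5 on the control array, 1.23-fold higher. PRDX4, of the endoplasmic reticulum, read 5425.5 and 4687.1, and PRDX1, a cytosolic one, read 12886.2 and 11166.7. These were 1.16-fold and 1.15-fold higher, each under the size of a 1.5-fold change and inside or near the spread. PRDX2, the main peroxiredoxin of red cells, read 10658.8 on the PML4 array and 10055.9 on the control array at its brightest probe set. Its 3 dimmer probe sets were lower with PML4, from -0.15 to -1.25, the last at 99.2 against 236.6. PRDX6, which takes its electrons from glutathione, was lower at both probe sets, 14228.3 against 15642.6 and 11661.3 against 14432.2. SRXN1, sulfiredoxin, repairs overoxidised peroxiredoxins and is a known NRF2 target, and it read 2226.6 on the PML4 array and 2062.8 on the control array. The 6 measured genes had a median of 0.16, with 5 higher, 1 lower and none past 1.5-fold.

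**Figure D3:**
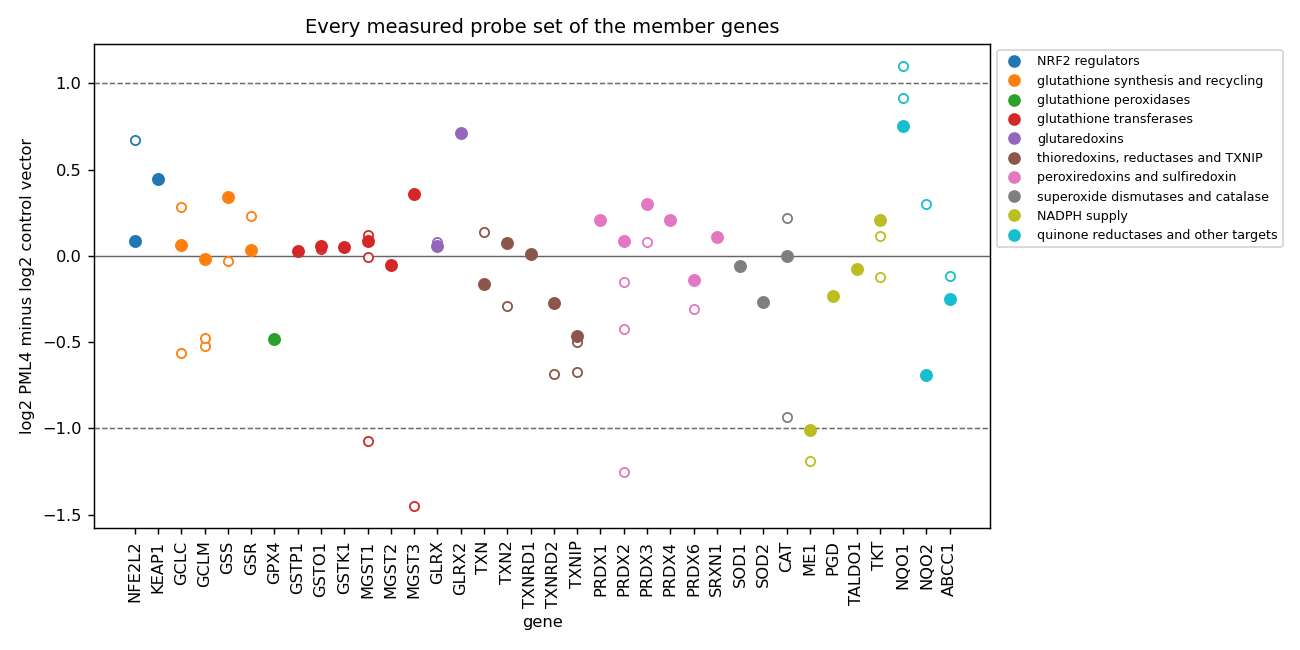
Log2 PML4 minus log2 control vector for all 68 measured probe sets of the 36 genes, coloured by role, with dashed lines at 2-fold. Filled points are the probe sets that stand for the genes and open points the others. NQO1 has all 3 points high, TXNIP all 3 and ME1 both low, while MGST1, MGST3, PRDX2 and CAT each have a low open point far from the filled one.

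The probe sets that stand for the genes and the other, dimmer ones leaned different ways. They do not cover the same genes, because only 22 of the 36 genes had more than 1 measured probe set. The 36 probe sets that stand for the genes had a median of 0.04, with 21 higher and 15 lower. The 32 other measured probe sets, with a median signal of 806 against 4361, had a median of -0.12, with 13 higher and 19 lower. Of these 32, 1 was past 2-fold higher, for NQO1, and 4 were past 2-fold lower, for ME1, MGST1, MGST3 and PRDX2, beside 1.3% higher and 3.22% lower among all measured probe sets. Over all genes both kinds of probe set had a median of -0.05. This split was made after the values were seen.

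Superoxide dismutases and catalase did not differ beyond the spread at the probe sets that stand for them. SOD1, the cytosolic copper and zinc enzyme, read 18888.3 on the PML4 array and 19634.4 on the control array. CAT, catalase, which breaks down hydrogen peroxide, read 7121.6 and 7124.2, the smallest difference of the set. SOD2, the mitochondrial manganese enzyme, read 156.6 on the PML4 array and 188.5 on the control array at the 1 probe set of its own. SOD2 lay at -0.27, and its 4 further probe sets are shared with SOD2-OT1 and were not used. CAT had further probe sets at 0.22 and, dim, at -0.93.

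Among genes that supply NADPH, ME1 stood apart from the pentose phosphate enzymes. ME1, which makes NADPH from malate, read 500.2 on the PML4 array and 1008.2 on the control array at its brighter probe set, and 182.1 against 414.3 at the dimmer. Both were therefore past 2-fold lower, at 2.02-fold and 2.28-fold, and the last probe set lay under the floor on both arrays. Under other scalings or with no floor the brighter one fell short of 2-fold, at -0.96 in the smallest case. Of 6143 genes with at least 2 measured probe sets 0.521% had every one at least 2-fold lower. ME1 meets this condition, which follows its own values, so the share is a description and no test. The ME1 difference lies just past 2-fold. The nearest genes of the set inside 2-fold were NQO1 at 0.76, GLRX2 at 0.71 and NQO2 at -0.69. PGD, the second NADPH-making step of the pentose phosphate pathway, read 5172.6 on the PML4 array and 6084.6 on the control array. The transaldolase TALDO1 read 15271.3 and 16100.0, and the transketolase TKT read 2267.5 and 1962.0. These 3 lay between -0.23 and 0.21, inside the spread.

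NQO1, the quinone reductase often used as a readout of NRF2, had the largest difference upward of the set. Its probe sets read 2886.9 on the PML4 array against 1709.9 on the control array, 1357.2 against 719.8, and 721.8 against 336.4. They were 1.69-fold, 1.89-fold and 2.15-fold higher, so all 3 agreed in direction and in size to within 0.35. Of 2847 genes with 3 or more measured probe sets 0.562% had every one at least 1.5-fold higher. NQO1 meets this condition, which follows its own values, so the share is a description and no test. NQO2, its relative that uses dihydronicotinamide riboside in place of NADPH, read 4079.7 on the PML4 array and 6586.8 on the control array, 1.61-fold lower. The dim second NQO2 probe set read 110.4 and 89.7, the other way. ABCC1, an exporter of glutathione conjugates, was 1.19-fold lower at 3581.3 on the PML4 array and 4254.3 on the control array. OSGIN1, an oxidative stress response gene, read 39.1 on the PML4 array and 3.7 on the control array, both under the floor.

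The known NRF2 targets in the set did not share a direction. NQO1 was 1.69-fold higher and ME1 2.02-fold lower, while GCLM, TXNRD1 and SRXN1 lay at -0.02, 0.01 and 0.11. In 7 neighbouring lists of other genes of these pathways, 101 of 120 genes were measured. Of these 1 was past 2-fold higher and 6 were past 2-fold lower, beside 1.23% and 3.21% of all measured genes. By any size 44.7% of all measured genes were higher and 55.3% lower, with a median of -0.05. The lists were chosen with earlier results of these data known.

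Genes of glutathione supply and turnover outside the set were mostly lower with PML4. Of 10 measured genes 8 were lower and 3 past 2-fold, and the median was -0.53. Among all measured genes 55.3% were lower and 3.21% past 2-fold lower, with a median of -0.05. CHAC1, which degrades glutathione, read 152.8 on the PML4 array and 792.3 on the control array. SLC7A11, the cystine transporter that feeds glutathione synthesis, read 2088.1 and 5297.6, and CTH, which makes cysteine from cystathionine, read 2106.4 and 4558.5. All 3 SLC7A11 and both CTH probe sets were lower. GGCT, the gamma-glutamylcyclotransferase, read 10382.3 on the PML4 array and 10410.7 on the control array. SLC7A11 and CTH, named because they passed 2-fold, thus differed by more than the synthesis genes GCLC, GCLM and GSS. SLC3A2 and CBS of the same list, named after their values were seen, lay at -0.54 and -0.50. That is near the dimmer GCLM probe sets, at -0.52 and -0.48. The contrast between cysteine supply and glutathione synthesis was not tested.

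Other NRF2 targets were mostly lower, with 1 large exception. Of 24 listed genes 16 were measured, 12 lower and 4 higher, beside 55.3% lower among all measured genes. HMOX1, FTH1, CBR1 and CBR3 were among those not measured, so the counts do not cover them. The median was -0.51, beside -0.05. PIR, an iron-binding nuclear protein, read 2187.9 on the PML4 array and 701.5 on the control array, 3.12-fold higher with 1 probe set. AKR1C3, an aldo-keto reductase, read 714.2 on the PML4 array and 1665.2 on the control array, 2.33-fold lower. Its near-identical relatives AKR1C1 and AKR1C2, named after their values were seen, were 1.95-fold and 1.72-fold lower, and probe sets of these genes can share signal. FTL, the ferritin light chain, read 33940.1 on the PML4 array and 40111.0 on the control array. In direction PIR and NQO1 thus went together, and the AKR1C genes and ME1 went the other way.

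Partners of NRF2 and the proteins that turn it over held no 2-fold difference. Of 11 measured genes 7 were higher and 4 lower, beside 44.7% higher and 55.3% lower among all measured genes. Their median was 0.17, beside -0.05, and 4.43% of all measured genes were past 2-fold. RBX1, a subunit of the ubiquitin ligase used by KEAP1, read 6503.7 on the PML4 array and 5800.6 on the control array. CUL3, the scaffold of that ligase, was 1.32-fold higher, at 6511.3 and 4937.2, beside 1.36-fold for KEAP1. BACH1, a repressor at NRF2 sites, was 1.15-fold lower. CUL3 and BACH1 were named after their values were seen.

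Other enzymes of the same chemistry gave medians nearer that of all genes. Among all measured genes 55.3% were lower and 4.43% past 2-fold, with a median of -0.05. Of 14 other glutathione enzymes 9 were lower, with a median of -0.16. GSTA4, an alpha-class transferase that clears the lipid aldehyde 4-hydroxynonenal, was the only one past 2-fold, at 348.2 on the PML4 array and 803.7 on the control array. GLO1, glyoxalase, read 9969.8 and 12434.9. Of 17 other thioredoxin-fold and thiol enzymes none was past 2-fold, and the median was -0.03. TXNL1, a thioredoxin-like protein of the proteasome, was 1.52-fold higher at 6808.2 on the PML4 array and 4466.4 on the control array. Of the arrestin relatives of TXNIP, ARRDC3 and ARRDC4 were 1.77-fold and 1.46-fold lower. ARRDC2 and ARRDC1, outside the lists, went otherwise, at 0.41 and -0.02. These relatives were named after their values were seen. Of 16 other NADPH-supplying enzymes 11 were lower, with a median of -0.20. ALDH1L2, a mitochondrial folate enzyme that makes NADPH, was past 2-fold, at 115.5 on the PML4 array and 500.9 on the control array, and MTHFD2, another mitochondrial folate enzyme, was 1.48-fold lower at 12939.4 and 19214.2. Of 17 genes of selenoproteins and their synthesis none was past 2-fold, the median was -0.05, and SELENOH, a nuclear selenoprotein, read 10254.1 on the PML4 array and 10587.5 on the control array.

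**Figure D4:**
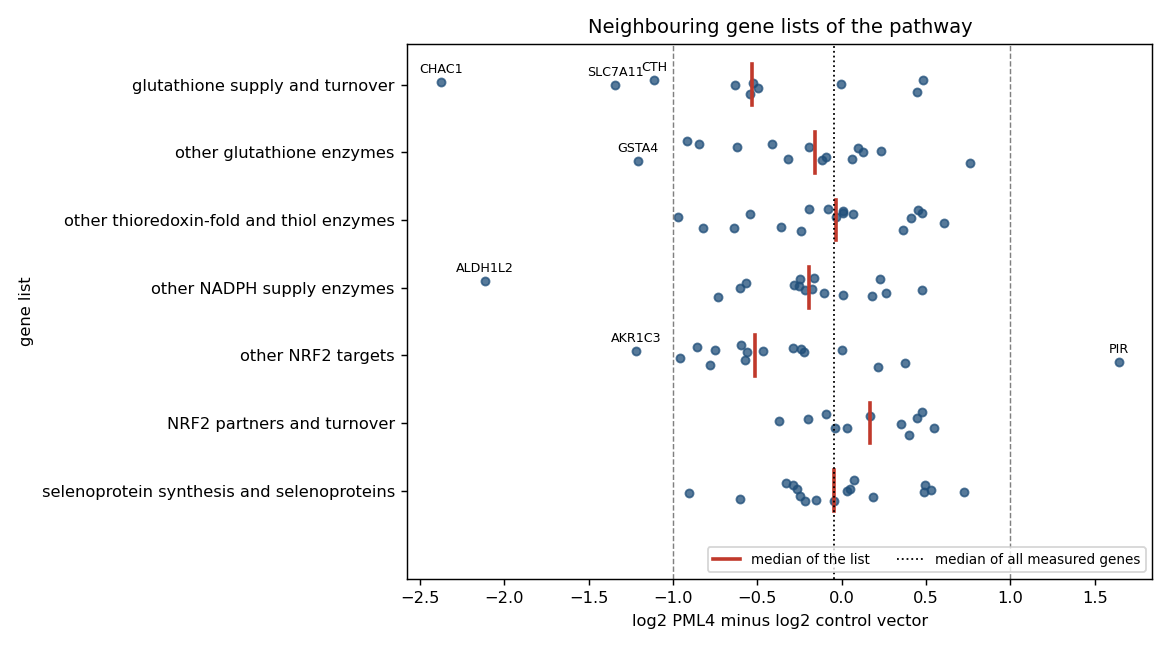
Log2 PML4 minus log2 control vector of the 101 measured genes in 7 neighbouring lists, 1 point per gene, with a red bar at the median of each list, a dotted line at the median of all measured genes and dashed lines at 2-fold. Points are spread vertically within a list for visibility. The medians of glutathione supply and turnover and of other NRF2 targets, -0.53 and -0.51, lie to the left, and PIR is the only point past 2-fold on the right.

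**Figure D5:**
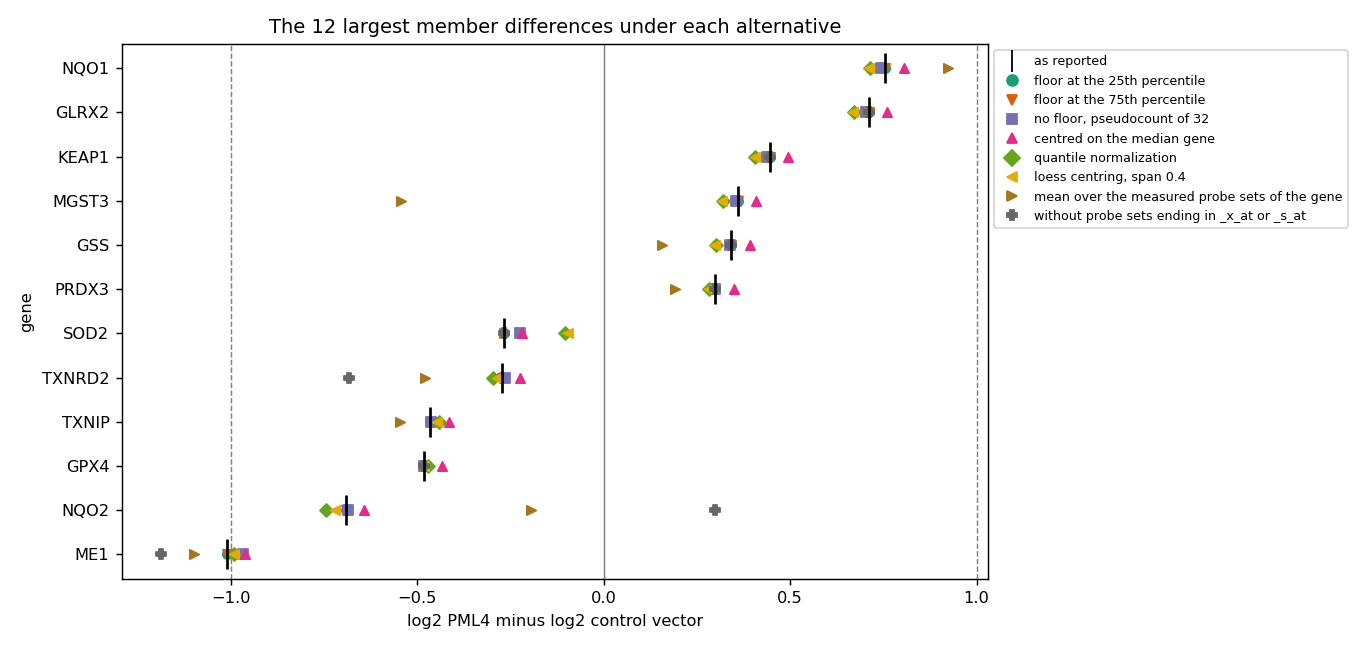
The 12 largest differences of the set under each of 8 alternatives of floor, scaling or choice of probe set, with black bars for the values as reported and dashed lines at 2-fold. NQO1, GLRX2, GPX4 and TXNIP keep their side of 0 and their rough size wherever they have a value. NQO1 and TXNIP have none where probe sets of the _x_at and _s_at types were left out. GLRX2 and GPX4 have 1 probe set each, so the choice of probe set could not move them. ME1 lies across the 2-fold line. NQO2 turns to 0.30 where probe sets of the _x_at and _s_at types were left out.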

How the data were processed

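Total RNA of K562 cells was labelled and hybridised to 1 array per group, 6 µg per labelling, per the labels' protocols. The deposited values are signal intensities on a linear scale, made by the authors with MAS5, per the submitters' processing notes, with version and settings not given in the sources used here. MAS5 scales each array: without the lowest and highest 2% the mean intensity was 500.1 on the PML4 array and 500.0 on the control array. The median human probe set read 64.0 and 80.6. Of 54613 human probe sets 41091 had 1 gene in GEO's array annotation, 1801 had several and were not named, and 11721 had none. Symbols were updated through Entrez identifiers, and promoter sequences are RefSeq's.

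Everything else was computed here with Python 3.11.15, pandas 2.3.3 and statsmodels 0.14.6. A gene took its measured probe set of highest mean log2 signal, and a call was a 2-fold difference. The calling code was run on simulated arrays with planted changes well past 2-fold in bright genes and little noise. That run checks the code only and cannot test calls near 2-fold. Alternatives were 8 of floor, scaling or probe set and 2 of call size. Genes were named by rule: every gene of the set, and in other lists those called, at most 4 per list, and the brightest. Members and lists were chosen with earlier results of these data known. With 1 array per group, precision is limited by that number.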

Additional observations from a re-analysis of the deposited data

How the results depend on the processing

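With 1 array per group no replicate could be left out. No paired analysis was possible because each group holds 1 array. The other floors left the differences of the genes still measured as reported, so they test only the counts. Over the 8 alternatives of floor, scaling and probe set the medians ran as follows: -0.06 to 0.09 for the set, 0.03 to 0.11 for glutathione genes, -0.01 to 0.12 for thioredoxin genes and -0.23 to -0.11 for NADPH-supplying genes. Those of the set and of thioredoxin genes were below 0 only with the mean over probe sets. The call of ME1 hung on the setting. Its difference ran from -1.19 to -0.96, and 0 genes of the set were lower by 2-fold without a floor, after centring on the median gene, after quantile normalization and after loess centring. With a 25th-percentile floor 1 gene of the set was higher (OSGIN1) and 2 were lower (ME1 and GPX7), and with probe sets of the _x_at and _s_at types left out 2 were lower (ME1 and MGST1). At 1.5-fold 2 were higher and 2 lower, and at 3-fold 0 were lower. Probe set choice gave 11 differences that moved by more than 0.29. As means over probe sets these were NFE2L2 at 0.38, GCLM at -0.34, MGST1 at -0.22, MGST3 at -0.54, PRDX2 at -0.44 and NQO2 at -0.20. With the _x_at and _s_at types left out they were MGST1 at -1.07, TXN at 0.14, TXNRD2 at -0.68, TKT at -0.12 and NQO2 at 0.30. Of these MGST1, MGST3, PRDX2, TXN, TKT and NQO2 changed sign, as did GCLC and TXN2 as means and GCLM, GSR, TXNRD1 and CAT, all near 0, under at least 1 scaling.

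Across all genes, 154 higher and 402 lower calls became 667 and 2000 under a 25th-percentile floor, then 50 and 63 under a 75th-percentile one. Loess centring gave 265 lower calls. At 1.5-fold there were 715 and 1484, and at 3-fold 27 and 59. Under the floor no order of signals was read.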

Other observations

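Few promoter windows held the carbohydrate response element that lies before TXNIP. Of the 20 genes with it 15 were measured, 4 higher and 11 lower with PML4, with a median of -0.15. Besides TXNIP, the lowest were GFPT1, the first enzyme of the hexosamine pathway, 1556.5 on the PML4 array against 3417.9 on the control array, and the dim POM121L12, 88.9 against 203.4. GFPT1, POM121L12 and RAN were named after their values were seen. RAN, a nuclear transport GTPase whose window also held these letters, read 22070.9 on the PML4 array and 21096.3 on the control array. The genes with the element thus lay on both sides of 0, beside a median of -0.04 for the measured genes with any window.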
